A study of Homo sapiens and Mus musculus with 13 samples.

Results

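Erythroid cells make haemoglobin under the control of a small set of transcription factors, and 10 genes of this programme at 8 places of the human genome were examined for R-loops. The members are the regulators TAL1, KLF1, GFI1B, LMO2 and NFE2, the transferrin receptor gene TFRC, the globin genes HBZ and HBA1 of the alpha-globin cluster, and the globin genes HBG2 and HBE1 of the beta-globin cluster. They were chosen by gene position on hg19. Every peak within 5 kb of the 6 single genes, of the stretch from HBZ to HBA1 or of the stretch from HBG2 to HBE1 was counted as lying at a locus. These 8 windows of 12.8 to 56.2 kb held 40 of the 51445 K562 DRIP-seq peaks. In NT2 they held 10 of 67126 peaks of digest A, 10 of 49331 of digest B, 14 of 59825 after RNase A, 0 of 8998 after RNase H and 8 of 88310 DRIPc-seq peaks.

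In an R-loop, RNA pairs with the template strand of DNA and leaves the other strand unpaired. R-loops are known to form behind RNA polymerase, often near the starts and ends of transcribed genes, and G-rich RNA favours them. TAL1, with its partner LMO2, belongs to a DNA-bound complex with GATA factors in red cell precursors. KLF1 binds CACCC motifs and switches on globin and other erythroid genes, NFE2 encodes the blood-specific subunit of a factor that acts through the globin control regions, and GFI1B is a repressor of red cell and platelet precursors. TFRC takes up iron and is made in many dividing cells, at high level in erythroid ones. HBZ and HBE1 are globin genes of the embryo and HBG2 of the fetus, while HBA1 is active in both fetus and adult.

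The series has 13 samples, of which 7 give the 6 human peak lists used here. K562, a human leukaemia line with erythroid and myeloid features that is known to make embryonic and fetal globins, gave 1 DRIP-seq list. NT2, a pluripotent line from a human testicular embryonal carcinoma and so a line outside the blood lineages, gave DRIP-seq lists after enzyme mix A (XbaI, SspI, HindIII, EcoRI and BsrGI), after mix B (PvuII, NheI, BamHI, NcoI and ApaL1), and after mix A with RNase A or RNase H, plus 1 DRIPc-seq list that the labels name for 2 samples. The K562 and DRIPc-seq libraries were also cut with mix A. DRIP-seq recovers RNA:DNA hybrids with an antibody and sequences the DNA without strand, whereas DRIPc-seq sequences the RNA of the hybrids and so gives each peak a strand. RNase H destroys the RNA of hybrids and serves as the negative control. Each list stands for 1 library or a combination the labels do not describe, so there is no replicate check and no p-value, and cell line and library cannot be told apart. The lists hold positions without read counts, so depth is unknown and an absent peak is a region that was not called. Peak lists do not measure transcripts, so the identity of the cell lines was not checked here.

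All 8 loci carried K562 peaks. The background is the share of 100417 consecutive windows of 30.8 kb, the median length of the 8 windows, laid along chromosomes 1 to 22, X and Y. Of these windows, genes or not, 19.1% held a K562 peak. Digest A peaks were found at 4 of 8 loci, against 23.7% of the consecutive windows, and digest B peaks at 6 of 8, against 25.7%. The RNase A list had peaks at 5 of 8 loci and the DRIPc-seq list at 4 of 8, where 25.5% and 33.6% of the consecutive windows had any. Without the flanks, 3 loci had digest B peaks and 2 had DRIPc-seq peaks. After RNase H no locus had a peak, and 6.66% of the consecutive windows did.

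Against digest A, the NT2 DRIP-seq list made with the same enzymes and without RNase, K562 had more loci with peaks. TAL1, LMO2, the alpha-globin stretch and the beta-globin stretch, 4 of 8 loci, had K562 peaks and no digest A peak, a pattern found in 3.43% of all consecutive windows and in 18.0% of those with a K562 peak. The opposite pattern was found in 8.05% of the consecutive windows. It was found at 0 of 8 loci, which was fixed once all 8 had a K562 peak and is no separate result. LMO2 and the beta-globin stretch had K562 peaks and none in digest A, digest B, RNase A or DRIPc-seq, a pattern of 1.38% of the consecutive windows. They were also the only 2 loci with K562 peaks and none in digest B, a looser pattern whose share of the consecutive windows was not computed. In the RNase A list, also cut with mix A, the alpha-globin stretch had 4 peaks, while TAL1, LMO2 and the beta-globin stretch had none. The share of consecutive windows with a K562 peak and no RNase A peak was not computed either. In terms of length, peaks covered more of the window in K562 than in digest A at 8 of 8 loci, which held for 10.1% of all consecutive windows and 53.0% of those with a K562 peak. The median difference was 39.6 percentage points over the 8 loci and 0.40 points over the consecutive windows with a K562 peak. Gene-free stretches count among the consecutive windows and no hg19 annotation was used, so the same shares over all genes are not given.

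**Figure D1:**
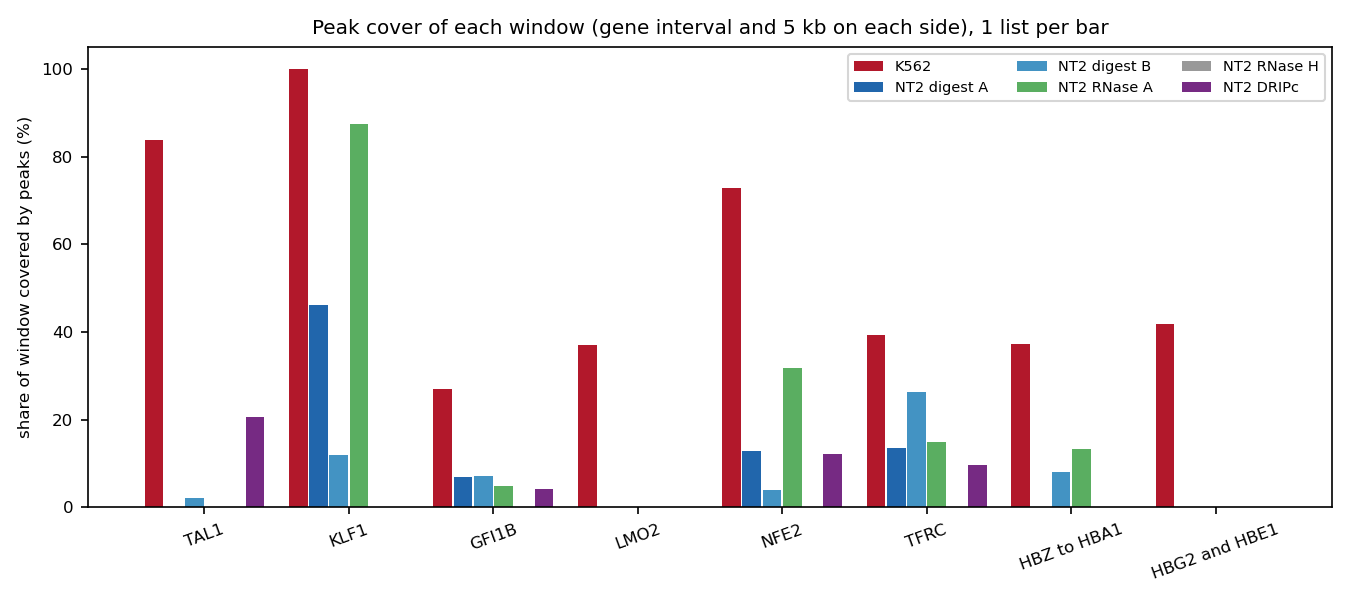
Share of each window covered by peaks, in percent, with 1 bar for each of the 6 human lists at each of the 8 loci and no error bars because each bar is 1 list. K562 reaches from 27.0% at GFI1B to 100% at KLF1 and is the tallest bar at every locus, and the RNase H list is at 0 throughout.

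Peak by peak, the lists shared little at these loci when seen from K562. Of the 40 K562 peaks, 7 touched a digest A peak by at least 1 bp (17.5%, exact Clopper-Pearson 95% interval 7.34 to 32.8%), while 67.3% of all K562 peaks did. Peaks of any NT2 DRIP-seq list other than RNase H were touched by 14 of 40 (35.0%, interval 20.6 to 51.7%), against 79.3% of all K562 peaks. With DRIPc-seq added, 17 K562 peaks at the loci were found in NT2 and 23 were not. The share of all K562 peaks was not computed for this wider set, so these counts have no background. Loci differed in this: all 6 K562 peaks at TFRC and the 1 at KLF1 were found in NT2. None of the 7 at LMO2 and of the 5 at the beta-globin stretch was. The intervals cover counting error only, and peaks of 1 locus are not independent.

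Seen from NT2, most digest A peaks at the loci were shared with K562 and with each NT2 list other than RNase H. All 10 digest A peaks at the loci touched a K562 peak (interval 69.2 to 100%), against 54.7% of all digest A peaks. Digest B touched 7 of 10 (background 76.8%), the RNase A list 8 of 10 (background 65.5%) and DRIPc-seq 6 of 10 (background 61.4%). The intervals of these shares include their backgrounds but are wide: 34.8 to 93.3% for digest B, 44.4 to 97.5% for RNase A and 26.2 to 87.8% for DRIPc-seq. With 10 peaks they cannot tell whether sharing among the NT2 lists differed at the loci. The RNase H list touched 2 of 10 (interval 2.52 to 55.6%, background 5.09%). Those 2 are long peaks at the edges of the KLF1 and NFE2 windows, and the RNase H peaks that they reach lie outside the windows, 5.15 kb from KLF1 and 5.23 kb from NFE2.

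The start of the gene, taken as the 5′ edge of each interval, lay inside a K562 peak at 8 of 8 loci: TAL1, KLF1, GFI1B, LMO2, NFE2, TFRC, HBZ and HBE1. In NT2 it did so only for GFI1B in digest A, for GFI1B and TFRC in digest B, for GFI1B and KLF1 after RNase A, and for no gene in the DRIPc-seq and RNase H lists. Counting peaks within 1 kb of the start, there were 3 such loci in digest A and 4 after RNase A. Only the outermost start of each interval was counted. RefSeq lists a further start inside TAL1 and inside GFI1B, and these were not placed on hg19. At GFI1B, K562 had no peak between 1.425 and 38.7 kb after the 5′ edge, so 8 of 8 holds for the outermost starts alone. Peaks cover 3.76% of the human chromosomes in K562 and between 4.39% and 7.23% in the NT2 lists other than RNase H. These are shares of positions and not of gene starts. Without an hg19 annotation the share of all gene starts in a peak is unknown, so the counts of starts have no matching background. Promoter sequences from RefSeq on GRCh38.p14 were at hand for 4 of the 10 members, TAL1, KLF1, GFI1B and TFRC, and the most upstream one of each is shown because the 5′ edge of each gene lay in a K562 peak on hg19. Each runs from 250 bases before to 50 bases after the start on the gene's strand. Capitals mark GATAA on either strand (TTATC on the printed strand), the core of the motif bound by GATA factors.
TAL1, chr1:47232286-47232585, minus strand: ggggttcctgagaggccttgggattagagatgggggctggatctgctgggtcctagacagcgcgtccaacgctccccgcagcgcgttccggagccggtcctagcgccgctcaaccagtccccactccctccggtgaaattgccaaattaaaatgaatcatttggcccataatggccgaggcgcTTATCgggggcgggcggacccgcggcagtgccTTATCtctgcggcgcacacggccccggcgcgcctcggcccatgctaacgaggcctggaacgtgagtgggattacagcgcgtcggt
KLF1, chr19:12887152-12887451, minus strand: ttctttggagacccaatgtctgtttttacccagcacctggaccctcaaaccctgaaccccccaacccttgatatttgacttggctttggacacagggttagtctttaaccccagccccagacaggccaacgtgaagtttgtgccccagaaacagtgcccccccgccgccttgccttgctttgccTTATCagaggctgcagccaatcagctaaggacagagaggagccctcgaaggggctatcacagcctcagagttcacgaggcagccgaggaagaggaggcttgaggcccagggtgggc
GFI1B, chr9:132945281-132945580, plus strand: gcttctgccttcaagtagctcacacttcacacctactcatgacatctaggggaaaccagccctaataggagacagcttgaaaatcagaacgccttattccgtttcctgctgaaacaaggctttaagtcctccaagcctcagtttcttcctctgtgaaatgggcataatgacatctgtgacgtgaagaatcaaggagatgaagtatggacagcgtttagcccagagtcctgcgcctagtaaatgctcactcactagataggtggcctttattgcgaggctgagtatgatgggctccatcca
TFRC, chr3:196082041-196082340, minus strand: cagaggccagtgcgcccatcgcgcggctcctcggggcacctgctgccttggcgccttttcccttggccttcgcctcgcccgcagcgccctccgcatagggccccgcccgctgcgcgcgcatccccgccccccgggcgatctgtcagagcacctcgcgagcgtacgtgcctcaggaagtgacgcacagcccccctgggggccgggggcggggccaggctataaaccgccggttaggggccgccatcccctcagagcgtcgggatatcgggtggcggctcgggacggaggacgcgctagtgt

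These promoters had little composition in common. The TFRC promoter was 73.3% G and C with 37 CpG sites, the TAL1 promoter 64.3% with 30, the KLF1 promoter 57.0% with 6 and the GFI1B promoter 47.3% with 6, beside a median of 58.7% over 35114 promoters. The ratio of observed to expected CpG was 0.967 for TAL1 and 0.920 for TFRC, but 0.248 for KLF1 and 0.358 for GFI1B (median of all promoters 0.579). GC skew, the excess of G over C on the gene's strand as a share of both, was 0.026 for TAL1, -0.088 for KLF1, -0.056 for GFI1B and -0.055 for TFRC, beside a median of 0.012. Genes whose 5′ edge lay in a K562 peak thus had promoters rich and poor in CpG. Over all 6 promoters listed for these genes, 3 held more C than G on the gene's strand, beside 45.7% of all promoters. GATAA was found at 2 places in the TAL1 promoter, at 1 place in that of KLF1 and nowhere in these windows of GFI1B and TFRC, and 22.7% of all promoters hold it on either strand.

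**Figure D2:**
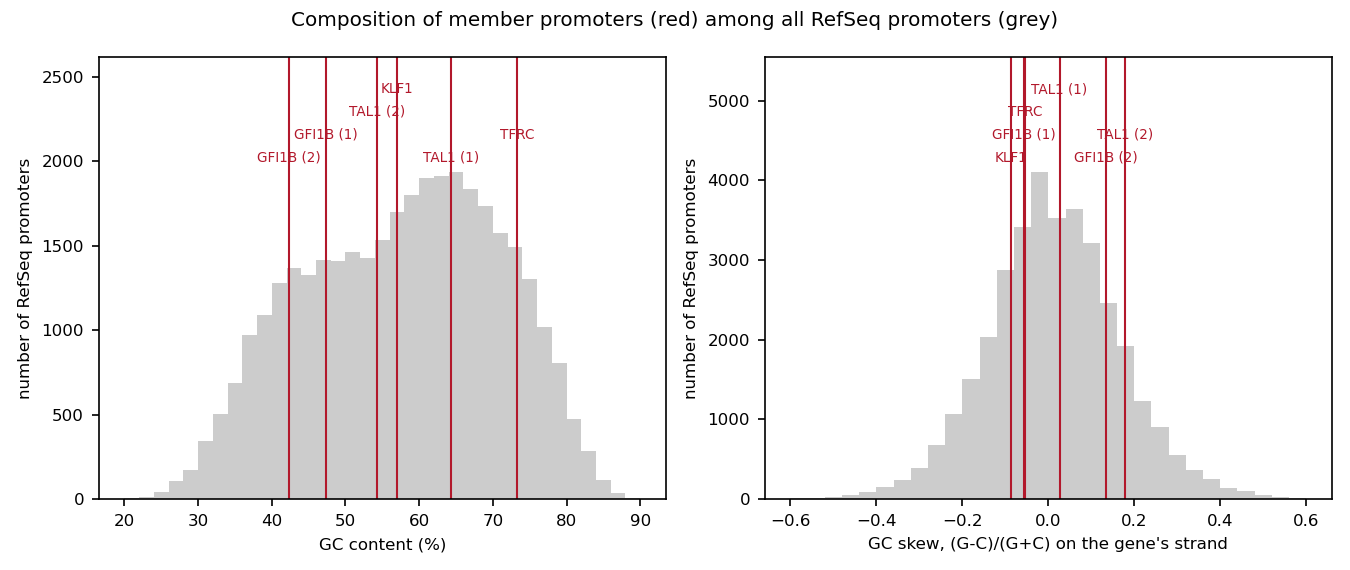
GC content (left, percent) and GC skew (right) of 35114 RefSeq promoters as grey histograms, with red lines for the 6 promoters listed for TAL1, KLF1, GFI1B and TFRC. The member promoters spread from 42.3% GC at the internal GFI1B promoter to 73.3% at TFRC, and their skews lie on both sides of 0, from -0.088 to 0.178.

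The table lists a further start within TAL1 (54.3% GC, skew 0.178) and within GFI1B (42.3% GC, skew 0.134, with GATAA at 1 place). Over the 6 member promoters, CACCC on either strand, the core of the KLF1 motif, was found in 3 (59.9% of all promoters) and the E-box CANNTG, which reads alike on both strands and is the kind of motif bound by TAL1, in 5 (68.7% of all). Each motif was counted by itself, whether or not it overlapped another. Of 25 other erythroid genes, among them those for GATA factors, heme enzymes and membrane proteins, 16 had 18 promoters in the table. GATAA was found in 8 of these 18, CACCC in 15 and CANNTG in 8, while 13 were above the median GC content and 11 had a skew above 0. A match is a string of letters and not a shown binding site.

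Among the regulators, TAL1 had the widest contrast in window cover between K562 and digest A, at 83.8 percentage points. Against digest B the contrast was wider at KLF1 (100% and 12.1%) than at TAL1 (83.8% and 2.07%). The window around the TAL1 interval, chr1:47681963-47698007 on the minus strand of hg19, held 6 K562 peaks, which covered 83.8% of it. The longest, chr1:47693637-47703942 (10.3 kb, longer than 97.6% of K562 peaks), ran from 5.94 kb before the start to 4.37 kb into the gene. NT2 had no peak there in digest A or after RNase A, and a digest B peak of 0.54 kb in the gene body. DRIPc-seq nevertheless listed 1 NT2 peak of 5.38 kb, from 7.33 to 12.7 kb after the start and on the gene's own strand, which overlapped the digest B peak and 3 K562 peaks. The start of TAL1 was 34.9 kb from the nearest digest A peak. In the surrounding 500 kb on each side, cover was 4.28% in K562, 4.36% in digest A, 5.66% in digest B, 4.19% after RNase A, 0.969% after RNase H and 9.25% in DRIPc-seq.

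LMO2 was bare in NT2. The window around its interval, chr11:33880122-33913836 on the minus strand, held 7 K562 peaks, of which 6 touched the interval, spread from 2.88 kb before the start to 33.3 kb after it, covering 37.0% of the window. The longest, chr11:33889171-33894735, measured 5.57 kb and lay 19.1 to 24.7 kb into the gene, while a short peak of 0.76 kb lay over the start. The nearest NT2 peaks were 83.5 kb from the interval in digest A, 84.1 kb in digest B, 85.5 kb after RNase A, 481 kb after RNase H and 31.6 kb in DRIPc-seq. Cover of the surroundings was 4.62% in K562, 5.11% in digest A, 8.58% in digest B, 4.32% after RNase A, 0.182% after RNase H and 6.98% in DRIPc-seq.

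KLF1, by contrast, lies among densely mapped genes. In K562 a single peak, chr19:12986499-13007997, spanned the whole window; at 21.5 kb it was longer than 99.7% of the list. In NT2, digest A covered 46.2% of the window with 3 peaks, digest B 12.1% with 1, and the RNase A list 87.5% with 4. Only a digest A peak of 1.42 kb at the 3′ end, chr19:12995019-12996440, and RNase A peaks of 1.60 and 2.93 kb reached the KLF1 interval of 2.78 kb. Digest A left the start free by 0.675 kb, with a peak of 12.9 kb beginning upstream of it. DNASE2 and GCDH flank KLF1 in the RefSeq table, so peaks in this window can belong to them. The surroundings were covered to 39.2% in K562 and 31.8% in digest A, and DRIPc-seq had no peak within 8.13 kb of the interval.

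NFE2 showed a sharp division of its window. K562 had a peak of 10.8 kb, chr12:54685895-54696667, which covered the interval of 8.93 kb from end to end and went on 1.85 kb upstream of the start. Of the NT2 lists, only that of RNase A reached the interval, with a peak of 3.52 kb beginning 0.619 kb after the start. Peaks downstream of NFE2, on the side of HNRNPA1, were by contrast found in all lists other than RNase H: chr12:54679022-54683316 in digest A, chr12:54678961-54683383 after RNase A and chr12:54679465-54683294 in K562 had similar edges. Outside the window, these 3 peaks also touched an RNase H peak. DRIPc-seq peaks on this side carried both strands, 2326 bp on the strand of NFE2 and 2096 bp on the other strand within the window. The NFE2 interval itself had no DRIPc-seq peak.

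At GFI1B, the lists were alike at the 5′ edge and differed at the 3′ end. All DRIP-seq lists other than RNase H had a peak over the start, 4.47 kb long in K562, 2.88 kb in digest A, 4.04 kb in digest B and 2.69 kb after RNase A. This edge adjoins TSC1, which is on the opposite strand, and the only DRIPc-seq peak of the window, 2.37 kb long and 1.64 kb before the start, was on the strand of TSC1. Within the window, K562 alone had peaks at the end of GFI1B: chr9:135859623-135869976 (10.4 kb) crossed the end of the interval, and a further peak of 9.67 kb began in the downstream flank. The former touched no peak of any NT2 list, and the latter touched a digest A peak outside the window. GFI1B was also the locus least covered in K562, at 27.0%, in surroundings covered to 20.8%.

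**Figure D3:**
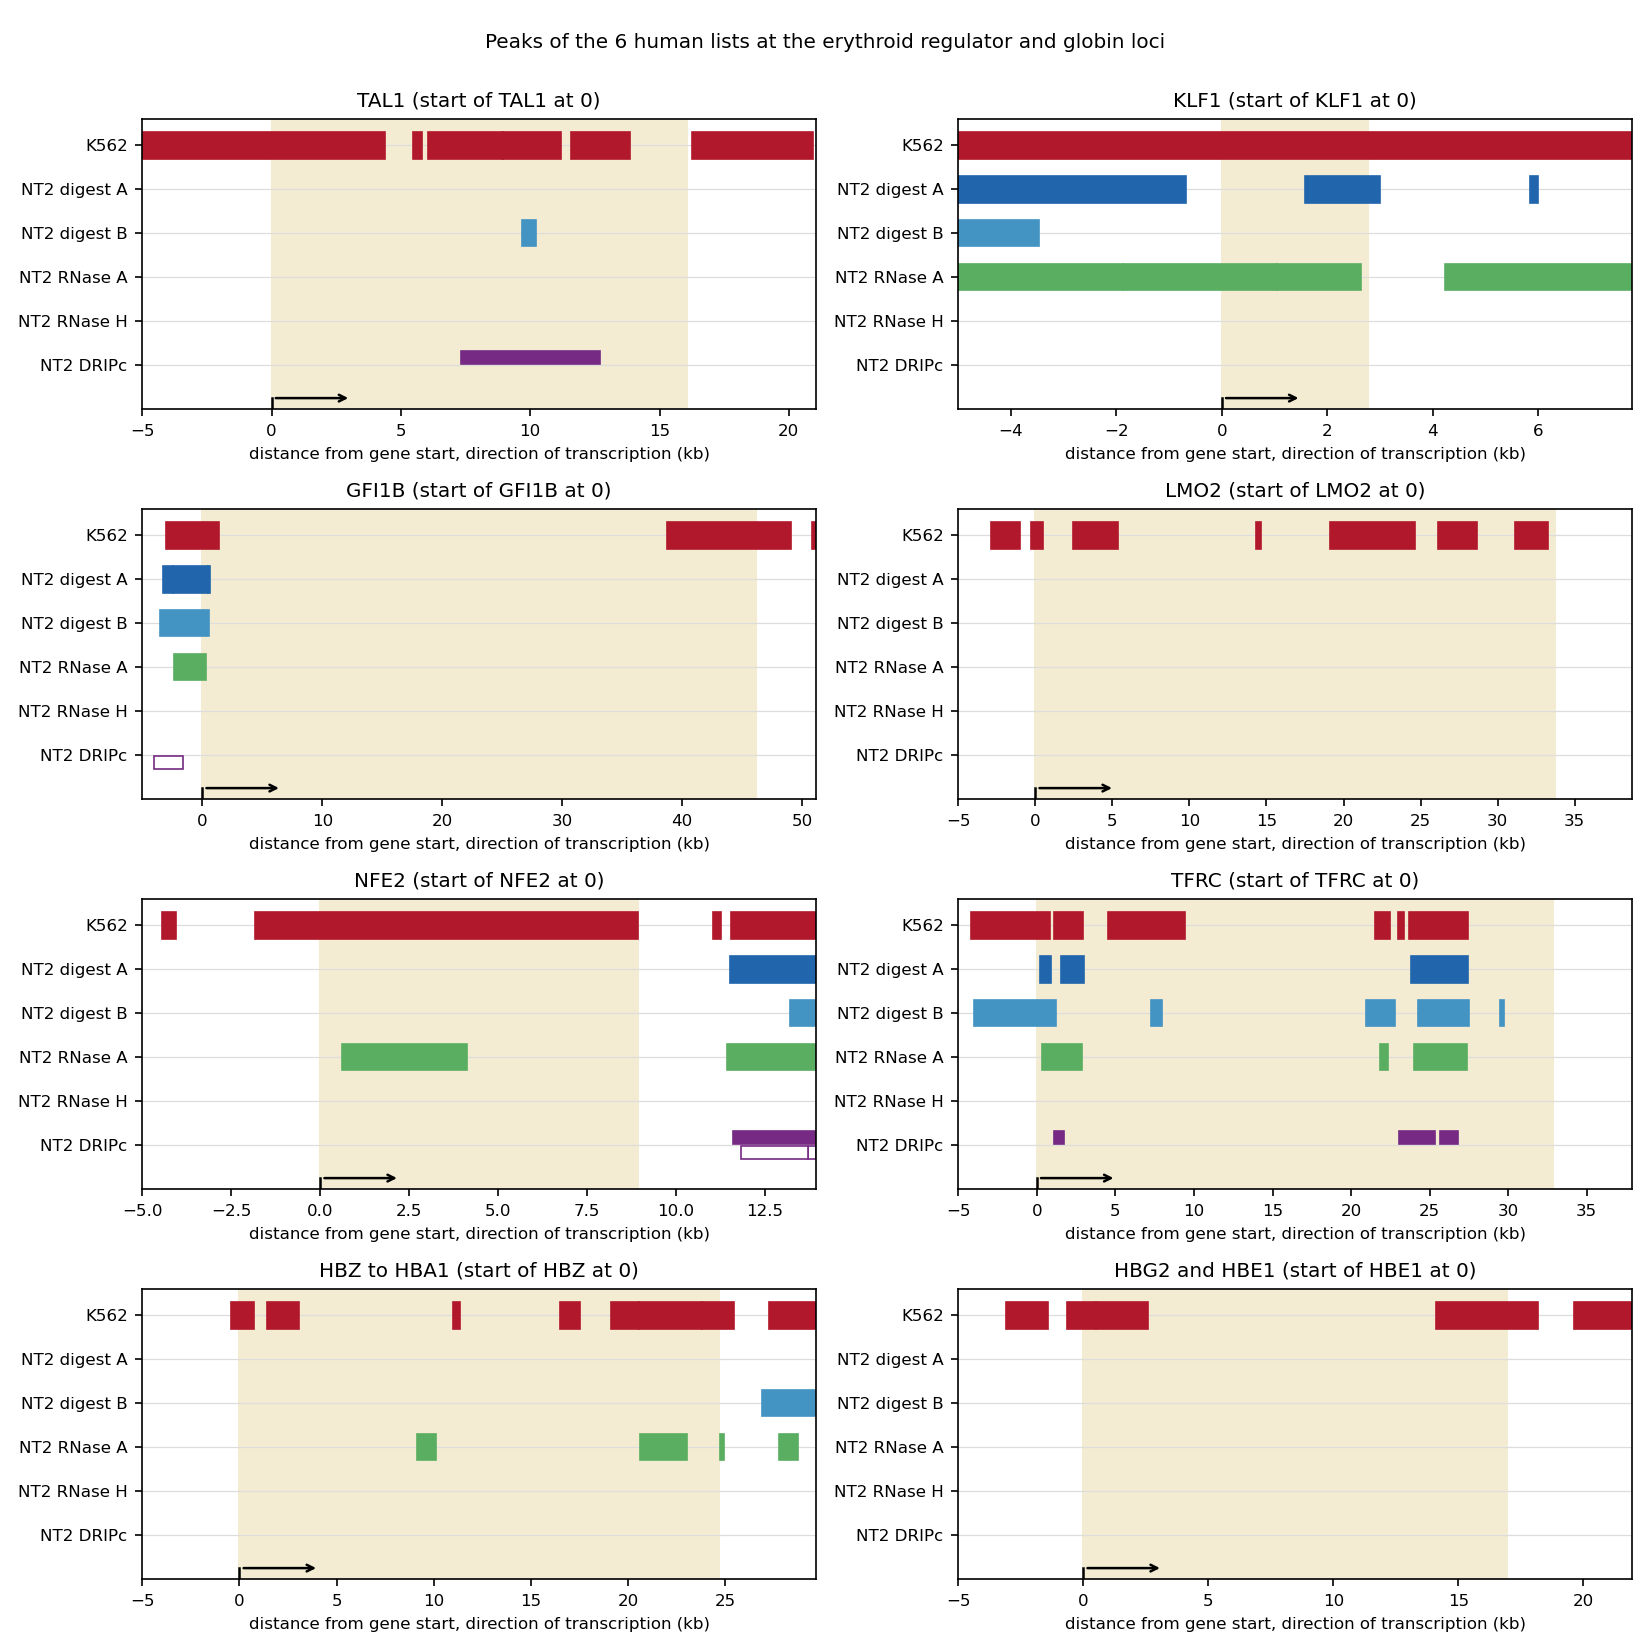
Positions of all peaks in the 8 windows, in kb from the gene start and in the direction of transcription, with 1 row per list, the interval shaded and peaks clipped at the window. DRIPc-seq bars are filled above the line when on the gene's strand and open below it when on the other; K562 bars cross 0 in all 8 panels, and the LMO2 and HBE1 panels hold K562 bars alone.

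At TFRC every K562 peak had a counterpart in NT2. Its interval, chr3:195776155-195809032 on the minus strand, was covered to 38.3% in K562, 17.7% in digest A, 22.3% in digest B, 19.4% after RNase A and 12.5% in DRIPc-seq. All 6 K562 peaks touched an NT2 peak. A stretch in the gene body had peaks in every list other than RNase H, DRIPc-seq included, with chr3:195781615-195785333 in K562, chr3:195781572-195785192 in digest A, chr3:195781526-195784801 in digest B and chr3:195781632-195785031 after RNase A. At the 5′ end, K562 had a peak of 5.07 kb from 4.22 kb before to 0.853 kb after the start, and digest B a peak of 5.20 kb there. Digest A and RNase A stopped short of the start by 0.208 and 0.327 kb. The 3 DRIPc-seq peaks of 0.676 to 2.28 kb were all on the strand of TFRC.

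DRIPc-seq signal at the loci was thus found in NT2 inside 2 of the 8 intervals, TAL1 and TFRC, where all of its 9.49 kb lay on the strand of the gene. With the flanks, 11.8 kb lay on the gene's strand and 4.47 kb on the other, the latter next to GFI1B and NFE2. In the list as a whole, 52.3% of peaks were on the plus strand. That split does not give how often peaks follow the strand of a gene, which was not computed over all genes.

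The alpha-globin stretch, chr16:202854-227520, had 8 K562 peaks over 37.3% of its window, of which 7 touched the stretch itself. A peak of 1.18 kb lay over the start of HBZ, chr16:202426-203608, and 3 peaks separated by 1 bp each ran from chr16:221968 to the position 228318, past the end of HBA1. Between them lay peaks of 1635, 326 and 1016 bp. NT2 had no digest A peak there and a digest B peak of 7.40 kb beyond HBA1, which began 2.21 kb from the interval. The RNase A list, however, had 4 peaks in the window, including chr16:223473-225872 (2.40 kb) within the K562 run near HBA1, and none within 9.13 kb of the start of HBZ. This was the only locus where K562 cover in the window (37.3%) was below that of the surroundings (44.9%). The surroundings were covered to 27.4% in digest A and to 38.0% in the RNase A list, and whether that bears on the RNase A peaks was not tested.

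The beta-globin stretch, chr11:5274421-5291373 on the minus strand, had 5 K562 peaks in its window, of which 3 touched the stretch itself, and none in NT2. Peaks of 2.06 and 1.16 kb, 1 bp apart, ran over the start of HBE1, from 0.636 kb before it to 2.59 kb after it, and a peak of 1.68 kb lay further upstream. At the other end, chr11:5273189-5277274 (4.09 kb) ran over the HBG2 edge of the stretch, and a peak of 2.70 kb lay next to it on the side of HBG1. No list had a peak in the middle of the stretch, from 2.59 to 14.1 kb after the start of HBE1. The nearest NT2 peaks were 11.5 kb from the interval in digest B and DRIPc-seq, 11.7 kb in digest A and 331 kb after RNase A. Surroundings were sparse in both cell lines, at 3.07% cover in K562 and 0.307% in digest A. HBA1 and HBA2, and likewise HBG1 and HBG2, are near-identical copies. No source used here gives how reads matching both copies were placed, so which copy a peak belongs to is uncertain.

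Window cover was above that of the surrounding 500 kb on each side at 7 of the 8 loci in K562. This held for 13.4% of all consecutive windows and for 70.1% of those with a K562 peak, so most windows with a peak stand above their surroundings. In NT2 it held for 2 of the 4 loci with a digest A peak (15.8% of all consecutive windows, 66.7% of those with a peak), 1 of the 6 with a digest B peak (17.8% and 69.5%), 2 of the 5 with a peak after RNase A (17.1% and 67.0%) and 1 of the 4 with a DRIPc-seq peak (21.8% and 64.9%). It held for 0 of 8 loci after RNase H, where no locus had a peak, and for 5.68% of all consecutive windows. With 8 loci of unequal length and no test, no difference between the lists is drawn from these counts. In K562 the excess was widest at TAL1 (83.8% against 4.28%), NFE2 (72.8% against 9.72%) and KLF1 (100% against 39.2%). The digest A loci above their surroundings were KLF1 and NFE2, the latter by less than 1 percentage point (12.8% against 11.8%). The median K562 peak was 2258 bp long at the loci and 1360 bp in the whole list, and the median digest A peak was 1465 bp at the loci and 1206 bp in its list. Longer medians at the loci were also found in digest B (3656.5 and 2841 bp), RNase A (2607.5 and 1727 bp) and DRIPc-seq (2328 and 1749 bp). The difference was thus not particular to K562.

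**Figure D4:**
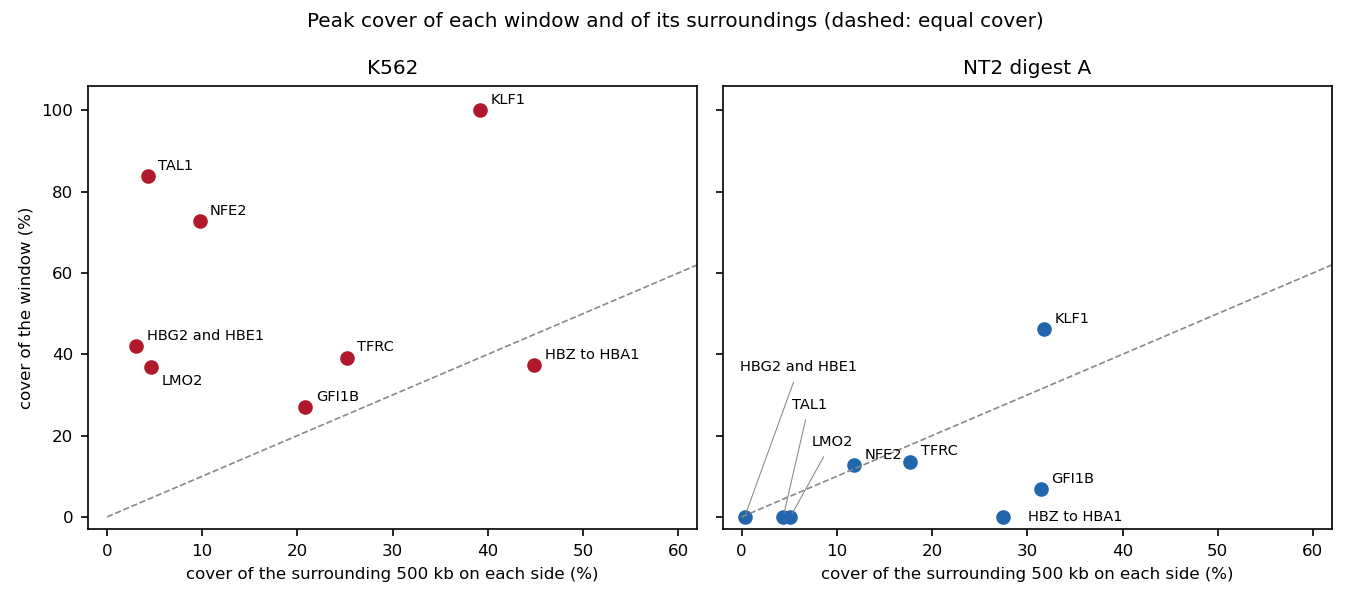
Peak cover of each window (vertical axis, percent) against that of the 500 kb on each side (horizontal axis, percent), with 1 point per locus for K562 (left) and NT2 digest A (right) and a dashed line of equal cover. In K562, 7 of 8 points lie above the line and the alpha-globin stretch below it; in digest A, 4 points lie at 0.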

How the data were processed

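Hybrids were mapped by DRIP-seq and DRIPc-seq, and the 6 human peak lists were used as deposited by the authors, with start and end positions on hg19 and no height, fold or p-value. BWA 0.6.1, TopHat2 2.0.5 and Bismark 0.7.7 are named without roles, per the submitters' processing notes. What called the peaks, at which threshold, and how reads with several matches were placed were steps not given in the sources used here. Mouse lists, RNA-seq samples and the MethylC-seq sample were not analysed.

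Windows were the 8 intervals with 5 kb on each side. Peaks were counted at a touch of at least 1 bp, and cover was clipped to the window with strand ignored. Consecutive windows of 30.8 kb and the cover of chromosomes reached up to the largest position listed. Shares have exact Clopper-Pearson 95% intervals. The functions were tested on simulated intervals, and peak numbers in the windows were equal to those of bedtools 2.31.1 in all 6 lists. Strands of TAL1, KLF1, GFI1B and TFRC came from the RefSeq table, those of the other members from general knowledge. Neighbouring genes were named from RefSeq on GRCh38.p14, whose coordinates were not used on hg19. By the naming rule, all 10 members were named and the longest peak of a window could be given by position; other peaks given by position were chosen after their values were seen. Alternatives were no flank, 10 kb flanks, the longest 50% of each list, 50% of a peak covered, digest B in place of digest A, and a peak within 1 kb of the start. The members, the gene lists and the comparisons were chosen with earlier results of these data known. Software was Python 3.11.15, numpy 2.4.6, scipy 1.17.1 and matplotlib 3.10.9.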

Additional observations from a re-analysis of the deposited data

How the results depend on the processing

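Of 81 values recomputed, 66 stayed within 1.5 times the reported count or cover, or inside the interval of the reported share. Some of the 66 could not have moved. Joining peaks 1 bp apart cannot change whether a window holds a peak. Wider flanks cannot lower the 8 of 8 loci of K562, and a shortened list cannot raise the 0 of RNase H. K562 had peaks at 8 of 8 loci without flanks and with the longest 50% of its list. For K562 gene starts the only alternative, a peak within 1 kb, is looser and could not lower the count. Without flanks, loci with a peak fell to 3 in digest B and 2 in DRIPc-seq, cover fell to 4.20% in digest A and 4.61% in digest B, and the share of digest A peaks found after RNase H was 0%, as it was when 50% of the peak had to be covered. With 10 kb on each side, cover rose to 10.5% and 12.1%, and RNase H reached 2 loci and 1.14% cover. Loci with K562 peaks but none in NT2 numbered 2 with digest B, or with any of digest A, digest B, RNase A and DRIPc-seq, in place of digest A. Joining peaks 1 bp apart, a setting added after the data were seen, raised the share of digest A peaks found after RNase A to 100%. A peak within 1 kb of the start was found at 3 loci in digest A and 4 after RNase A. No paired analysis was possible because each group has 1 list and no test was made. Depth is unknown, so a list can lack a peak through its threshold.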

Other observations

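Some listed peaks end 1 bp before the next begins, so a continuous run can count as several peaks. This held for 5.06% of the peaks in K562, 5.65% in digest A, 9.49% in digest B, 5.51% after RNase A, 1.36% after RNase H and 8.32% in DRIPc-seq. At the 8 loci, joining such peaks turned 40 K562 peaks into 36, 10 digest A peaks into 8, 14 RNase A peaks into 12 and 8 DRIPc-seq peaks into 6, and left the 10 digest B peaks as they were. The joined runs in K562 lie at TAL1, near HBA1 and over the start of HBE1.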
